A study of Homo sapiens with 6 samples.

Results

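The genes described here are the DNA replication and S phase machinery: 44 genes of the 40205 symbols in the count table, listed by symbol for their known roles rather than by a measured value. RNA-seq was run on libraries labelled HepG2, a human liver cancer cell line, with 3 libraries per group. The control libraries, Control-1 to Control-3, came from cells without CLs, and the treated libraries, CLs-1 to CLs-3, from cells kept with CLs for 24 h. CLs are cationic liposomes, which the study's methods describe as DOTAP, cholesterol and a PEG-linked lipid. The labels give the dose as 120 μM, while the study's text also gives that exposure in μg/ml, so the unit of the dose is uncertain. The labels name no other agent, and both groups were grown in the same serum-supplemented medium. The labels do not say whether the 3 samples of a group came from separate cultures, so p-values measure only the spread between these samples. All 44 symbols were in the table, and all 44 passed the filter on low counts.

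DNA replication begins when the origin recognition complex, CDC6 and CDT1 load the ring-shaped MCM helicase onto DNA before S phase. CDC45 and the GINS complex then turn the loaded ring into an active helicase. Primase and the polymerases copy the opened strands, with PCNA as their sliding clamp and RPA covering the exposed single strands. Many of these genes are transcribed near the G1/S boundary under E2F transcription factors, and as a group they are a common readout of how many cells in a culture are dividing. In bulk RNA, fewer cells in S phase and less RNA per cell cannot be told apart.

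No member passed the test between the groups. With edgeR's quasi-likelihood test 0 of the 44 passed the call rule (Benjamini-Hochberg adjusted p under 0.05, with a fold of more than 1.5 or less than 0.67). By the same rule 13 of 15047 genes tested passed, or 0.0864%. At an unadjusted p under 0.05 there were also 0 members in either direction, against 2.19% of all genes higher and 3.62% lower in the CLs-treated group. DESeq2's Wald test likewise gave 0 members called and 0 at an unadjusted p under 0.05. The median log2 fold change of the 44, as CLs against control, was 0.02, beside 0.01 over all genes tested. Their values ran from -0.28 for GINS4 to 0.38 for POLE2, with 25 above 0 and 19 below.

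A test that is not passed does not show that the groups were alike, so the 95% intervals of the log2 fold changes were read as well. For 39 of the 44 members the whole interval lay inside a 1.5-fold change in either direction, which is 0.58 on the log2 scale. Of all genes tested, 49.1% had such an interval, in a comparison not matched for the number of reads per gene. The median standard error of the log2 fold change was 0.14 for the members (0.12 to 0.24) and 0.19 over all genes. The 5 members whose interval reached past 1.5-fold were GINS1 (-0.59 to 0.37), GINS4 (-0.66 to 0.10), PRIM1 (-0.03 to 0.60), RPA3 (-0.00052 to 0.69) and POLE2 (-0.16 to 0.91). POLE2, an accessory subunit of polymerase epsilon, had the fewest reads, at 47, 56 and 48 counts in the controls and 96, 68 and 50 in CLs-1 to CLs-3.

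**Figure D1:**
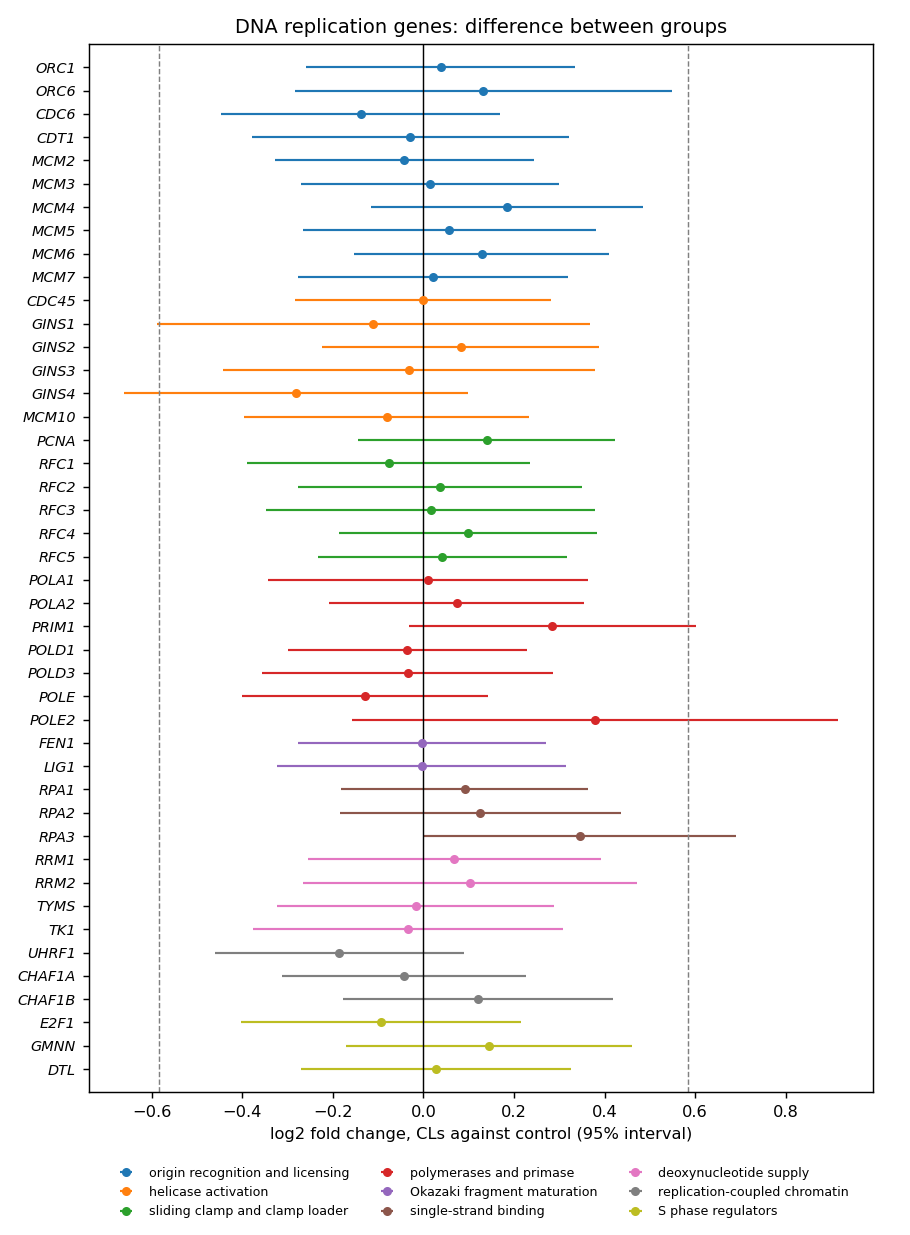
Log2 fold change of each of the 44 replication genes, CLs against control (x axis), with its 95% interval from edgeR's quasi-likelihood fit, coloured by role. The dashed lines mark a 1.5-fold change, and 39 of the 44 intervals lie inside them.

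The depth behind these values was 11418527 to 13998946 counts per library, and 3 counts corresponded to 0.214 to 0.263 CPM by the library total alone. The CPM of genes are counts scaled to the library total, adjusted by TMM factors. Before the results on single genes, 2 properties of the libraries have to be stated. The label HepG2 was checked against 17 hepatocyte and HepG2 marker genes. None of the 17 had over 3 counts in every control, and outside CLs-1 the highest count of any of them was 7. ALB, the gene of serum albumin, had 8 counts in CLs-1 and 0 elsewhere, AFP (alpha-fetoprotein) had at most 1 count, and APOH and TTR had 0 in all 6 libraries. Their sums were 5, 19 and 19 counts in the controls and 169, 4 and 3 in CLs-1 to CLs-3. COL3A1, a fibrillar collagen gene, had 7456 to 11358 counts, and COL1A1 had 764 to 2472. The other fibroblast and matrix markers read (COL1A2, DCN, LUM, THY1, GREM1 and BGN) had at most 5 counts outside CLs-1. The defining markers of the labelled line were therefore near 0, and the cells are called here by their label alone.

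CLs-1 stood apart from the other libraries. The 6 blood cell markers summed to 499 counts in CLs-1 and to 2 to 6 counts elsewhere, and the 5 steroidogenic markers to 466 against 11 to 32. Of the 8 fibroblast and matrix markers, 7 were highest in CLs-1. The 8 summed to 8226, 12007 and 12565 counts in the controls and 13379, 10817 and 9052 in CLs-1 to CLs-3. Most of each sum was COL3A1, which was highest in Control-3. The 4 endothelial markers summed to 5, 3 and 43 counts in the controls and 3, 1 and 5 in the CLs-treated samples. The part of these markers in the values of the replication genes was not tested, so the replication genes described with their values in every library are given with and without it.

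The promoters of these genes were searched for 2 exact forms of the letters that E2F factors bind. A shared promoter element is what groups many of them in the cell cycle. Other forms of the E2F site were not searched, so a window without a match may still hold one. RefSeq promoter windows (build GRCh38.p14, 250 bases before to 50 after a transcription start) were matched by symbol for 38 of the 44. The 6 without an entry were MCM4, MCM5, GINS4, POLD3, RPA2 and RPA3. TTTCCCGC, on either strand, was in a window of 10 of the 38 members (26.3%) and of 1.98% of 27305 genes. TTTGGCGC was in 9 members (23.7%) and in 0.795% of genes. Either form was in 19 members (50%) and in 2.75% of genes, and 0 members held both. The CCAAT box was in 65.8% of members and 39.7% of genes, and the GC box GGGCGG in 76.3% and 48.3%. Of the 20 E2F matches in members, 2 shared bases with a CCAAT or GC box match.

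The stretches below are shown for 8 members from 5 of the roles, written 5′ to 3′ on the gene's own strand with up to 26 bases on each side and none past the start. Capitals mark the E2F letters, or their reverse complement where the match is on the other strand. They are MCM3 at chr6:52284883-52284942, MCM6 at chr2:135876500-135876559, CDT1 at chr16:88803728-88803787, PCNA at chr20:5126648-5126707, LIG1 at chr19:48170425-48170484, UHRF1 at chr19:4909461-4909500, E2F1 at chr20:33686386-33686431 and GMNN at chr6:24775307-24775366. CDT1, UHRF1 and GMNN are on the plus strand of the genome and the other 5 on the minus strand.
MCM3: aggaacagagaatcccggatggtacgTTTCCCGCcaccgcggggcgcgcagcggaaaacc
MCM6: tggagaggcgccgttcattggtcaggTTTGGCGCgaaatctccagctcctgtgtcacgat
CDT1: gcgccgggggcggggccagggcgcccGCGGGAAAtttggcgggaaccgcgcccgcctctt
PCNA: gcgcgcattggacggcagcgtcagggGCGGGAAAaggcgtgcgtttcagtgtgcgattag
LIG1: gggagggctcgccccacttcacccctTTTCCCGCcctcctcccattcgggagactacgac
UHRF1: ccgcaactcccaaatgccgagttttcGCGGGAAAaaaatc
E2F1: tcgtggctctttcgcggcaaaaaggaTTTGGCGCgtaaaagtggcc
GMNN: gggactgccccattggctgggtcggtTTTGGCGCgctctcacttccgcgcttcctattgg

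The matches began 174 bases before the start in MCM3, 90 in MCM6, 35 in CDT1, 59 in PCNA, 114 in LIG1, 14 in UHRF1, 20 in E2F1 and 80 in GMNN. MCM6 held a further match of the same form 152 bases before its start. The other 19 members with a window held neither form, PRIM1 and RRM2 among them. A letter match is a description of the window and not a mapped binding site. Among the 19 members with a match the median log2 fold change was 0.01 (-0.19 to 0.38, 10 above 0). The 19 with a window and no match had a median of 0.04 (-0.08 to 0.28, 11 above 0). Members with the E2F letters thus lay on both sides of 0 in nearly equal number.

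Origin recognition and licensing, with 10 members, is the step that marks where replication can start. None of the 10 was called, and their median log2 fold change was 0.03 (-0.14 for CDC6 to 0.19 for MCM4). The 6 subunits of the MCM2-7 helicase ring had values of -0.04 (MCM2), 0.01 (MCM3), 0.19 (MCM4), 0.06 (MCM5), 0.13 (MCM6) and 0.02 (MCM7). MCM4 had the smallest p of the step, with 494, 455 and 469 CPM in the controls and 606, 485 and 521 CPM in CLs-1 to CLs-3. The groups overlapped, because CLs-2 lay below Control-1 (log2 fold change 0.19, standard error 0.14, edgeR adjusted p = 0.971). The exact permutation test of 3 against 3, two-sided as throughout, gave p = 0.20 for MCM4, where the smallest it can give is 0.10. Without CLs-1, the highest of its libraries, the value of MCM4 was 0.09 (edgeR adjusted p = 0.853). ORC1, the largest subunit of the origin recognition complex, had 0.04, and its smallest subunit ORC6 had 0.13. CDT1, the loading factor, had -0.03.

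Helicase activation, with 6 members, had 0 members called and a median of -0.06 on the log2 scale. CDC45 was at -0.0011, GINS1 at -0.11, GINS2 at 0.08, GINS3 at -0.03 and MCM10, which helps to start unwinding, at -0.08. GINS4, a subunit of the GINS complex, had 92.5, 94.9 and 81.1 CPM in the controls and 93.8, 66.4 and 60.5 CPM in CLs-1 to CLs-3. CLs-1 was thus at the level of the controls, and CLs-2 and CLs-3 were below all 3 of them. Over all 6 libraries the log2 fold change was -0.28 (standard error 0.17, edgeR adjusted p = 0.939, exact permutation p = 0.30). Without CLs-1 it was -0.50 (standard error 0.12, unadjusted p = 0.0033, edgeR adjusted p = 0.293), while without CLs-3 it was -0.16 (edgeR adjusted p = 0.979) and without CLs-2 it was -0.21. An annotated gene on the opposite strand covers 21.2% of the GINS4 exon bases, and whether the counting used strand is not given in the sources used here.

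The sliding clamp and its loader, with 6 members, had a median of 0.04. PCNA forms the ring that tethers the polymerases to DNA. It had 277, 265 and 282 CPM in the controls and 271, 313 and 325 CPM in CLs-1 to CLs-3. CLs-2 and CLs-3 were above every control and CLs-1 was within their range (log2 fold change 0.14, standard error 0.13, edgeR adjusted p = 0.998, exact permutation p = 0.30). Its value was 0.21 without CLs-1 and 0.09 without CLs-3. The 5 subunits of the RFC loader lay between -0.08 (RFC1) and 0.10 (RFC4), with RFC2 at 0.04, RFC3 at 0.02 and RFC5 at 0.04.

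The polymerases and primase, with 7 members, had a median of 0.01. PRIM1, the catalytic subunit of the primase that lays down the RNA primers, had 57.6, 49.1 and 52.6 CPM in the controls and 74.7, 61.1 and 58.1 CPM in the CLs-treated samples. Every CLs-treated library was above every control, with CLs-3 only just above Control-1 (log2 fold change 0.28, standard error 0.14, edgeR adjusted p = 0.889). The exact permutation p was 0.10. An annotated gene on the same strand, AC117378.1, covers 14.85% of the PRIM1 exon bases. Without CLs-1, its highest library, the value of PRIM1 was 0.17 (standard error 0.12, edgeR adjusted p = 0.705). Its partners in the primase complex, POLA1 and POLA2, had 0.01 and 0.07. AP000944.2, on the same strand, covers 35.1% of the POLA2 exon bases. Of the replicative polymerases, POLD1 had -0.04, POLD3 -0.03 and POLE -0.13, while POLE2, given above with its counts, had 0.38 (standard error 0.24, edgeR adjusted p = 0.951), and 0.24 without CLs-1 (edgeR adjusted p = 0.816).

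FEN1 and LIG1 finish the lagging strand, the first by cutting the flap that carries the old primer and the second by sealing the nick. FEN1 had a log2 fold change of -0.0030 and LIG1 of -0.0039. LIG1 had 136, 135 and 148 CPM in the controls and 115, 150 and 154 CPM in CLs-1 to CLs-3 (standard error of the log2 fold change 0.15, edgeR adjusted p = 0.999, exact permutation p = 1). CLs-1 was the lowest of the 6 libraries and the other CLs-treated libraries were the highest. Without CLs-1 the value of LIG1 was 0.12 (edgeR adjusted p = 0.783).

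RPA, the heterotrimer that covers single-stranded DNA, had the highest median of the roles at 0.13, with RPA1 at 0.09, RPA2 at 0.13 and RPA3 at 0.35. RPA3, its smallest subunit, had 30.0, 26.1 and 28.5 CPM in the controls and 30.8, 41.6 and 35.0 CPM in the CLs-treated samples. All 3 CLs-treated libraries were above all controls, with CLs-1 only just above Control-1. Of the 44 members RPA3 had the smallest p (log2 fold change 0.35, standard error 0.16, unadjusted p = 0.0503, edgeR adjusted p = 0.855, exact permutation p = 0.10). Without CLs-1 it was 0.44 (standard error 0.14, unadjusted p = 0.0112, edgeR adjusted p = 0.399), and without CLs-2, its highest library, it was 0.22 (unadjusted p = 0.198, edgeR adjusted p = 0.999).

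Deoxynucleotide supply, with 4 members, had a median of 0.03. RRM1 and RRM2 are the large and small subunits of ribonucleotide reductase, TYMS makes thymidylate and TK1 salvages thymidine. RRM2 had 161, 145 and 140.2 CPM in the controls and 203, 134 and 142 CPM in CLs-1 to CLs-3, so that CLs-1 was the highest and CLs-2 the lowest of all (log2 fold change 0.10, standard error 0.17, edgeR adjusted p = 0.998, exact permutation p = 0.90). Without CLs-1 the direction turned, to -0.11 (edgeR adjusted p = 0.822). An annotated gene on the same strand, AC007240.1, covers 20.2% of the RRM2 exon bases. RRM1 had 0.07, TYMS -0.02 and TK1 -0.03. Of the TYMS exon bases, 39.2% lie opposite the exons of ENOSF1, so reads from that part cannot be assigned to either gene without strand.

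Of the factors that rebuild chromatin behind the fork, UHRF1 was lower in every CLs-treated library than in every control. UHRF1 recognises hemimethylated DNA and recruits the maintenance methyltransferase DNMT1. It had 78.8, 80.1 and 74.4 CPM in the controls and 67.7, 64.6 and 72.9 CPM in CLs-1 to CLs-3 (log2 fold change -0.19, standard error 0.13, edgeR adjusted p = 0.962, exact permutation p = 0.10). Without CLs-1 its value was -0.18 (edgeR adjusted p = 0.675). CHAF1A and CHAF1B, subunits of the CAF-1 histone chaperone, had -0.04 and 0.12. Of the regulators, E2F1 had -0.09 and DTL, which directs the destruction of CDT1 in S phase, had 0.03. GMNN, the inhibitor of CDT1, had 103, 93.1 and 80.4 CPM in the controls and 112, 102 and 91.2 CPM in the CLs-treated samples, with overlap (0.14, standard error 0.14, edgeR adjusted p = 0.998, exact permutation p = 0.50). Its value was 0.07 without CLs-1 and 0.06 without Control-3 (edgeR adjusted p = 0.916 and 0.999).

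Counted over the whole list, the groups did not overlap for 3 members. RPA3 and PRIM1 were higher in all 3 CLs-treated libraries, 2 of 44, where 5.34% of all genes tested were so. UHRF1 was lower, 1 of 44, where 6.18% of all genes were so. Both shares of the members are close to or below the background. Summed over the 44 members, the libraries held 8715, 8508 and 8338 CPM in the controls and 8654, 8691 and 8815 CPM in CLs-1 to CLs-3. CLs-1 and CLs-2 were within the range of the controls and CLs-3 was above Control-1, the highest control.

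**Figure D2:**
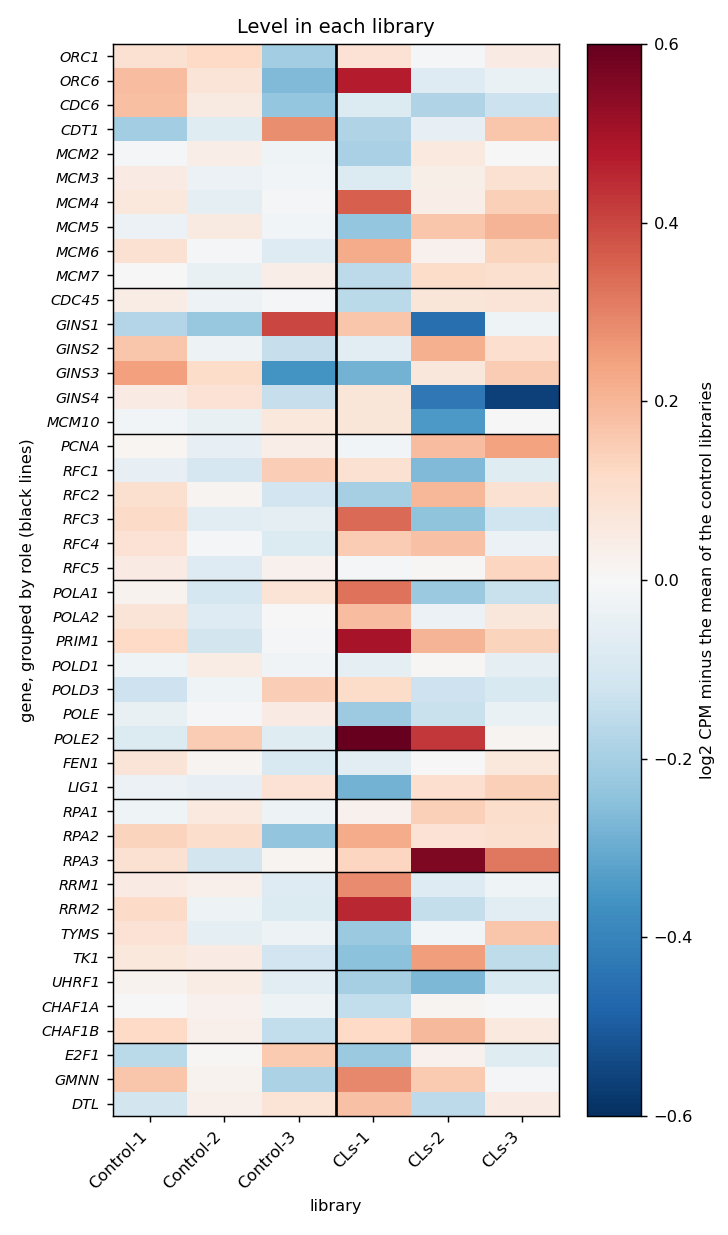
Log2 CPM of each of the 44 replication genes in each of the 6 libraries, minus the mean of the 3 controls, with genes grouped by role; colours stop at 0.6 in either direction. CLs-1 is the highest library for 14 members and the lowest for 12, while Control-3 is the lowest for 13. The strongest negative values are those of GINS4 in CLs-3 and CLs-2 and of GINS1 in CLs-2.

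For 31 of the 44 members the SD over the CLs-treated libraries was larger than that over the controls. For 42 the range over the CLs-treated libraries was wider than the difference between the groups. The median SD over the 3 libraries of a group was taken on the log2 scale. It was 0.096 for the members in the controls and 0.150 in the CLs-treated samples. Over all genes, again not matched for reads per gene, it was 0.192 and 0.228. CLs-1 was compared with the mean of CLs-2 and CLs-3 gene by gene. It was more than 0.3 higher for 9 members and more than 0.3 lower for 5. GINS4 (0.57), RRM2 (0.56), ORC6 (0.53), RFC3 (0.52) and POLA1 (0.50) were the highest. MCM5 and LIG1 (both -0.41), GINS3 (-0.39), RFC2 (-0.34) and RPA3 (-0.31) were the lowest.

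These deviations moved with the GC content of the transcripts (1 transcript per gene, GENCODE v29). Over the 44 members, whose transcripts had 39.1% to 64.9% GC, Spearman's rho was -0.69 and Pearson's r was -0.66. Over the 13667 genes tested that had a GC value rho was -0.59. These correlations are across genes of the same libraries, which are not independent replicates. Of the 22 members under the members' median GC of 48.2%, 18 were higher in CLs-1, with a median of 0.24. Of the 22 at or over it, 3 were higher, with a median of -0.18. In the controls, each compared with the other two, rho over the members was -0.21, 0.22 and 0.02. CLs-2 and CLs-3, each compared with a mean that holds CLs-1, had 0.57 and 0.49. AT-rich and GC-rich members thus lay on opposite sides of 0 in that library, also within a role, as with RFC3 (39.1% GC) and RFC2 (53.6% GC) of the clamp loader.

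**Figure D3:**
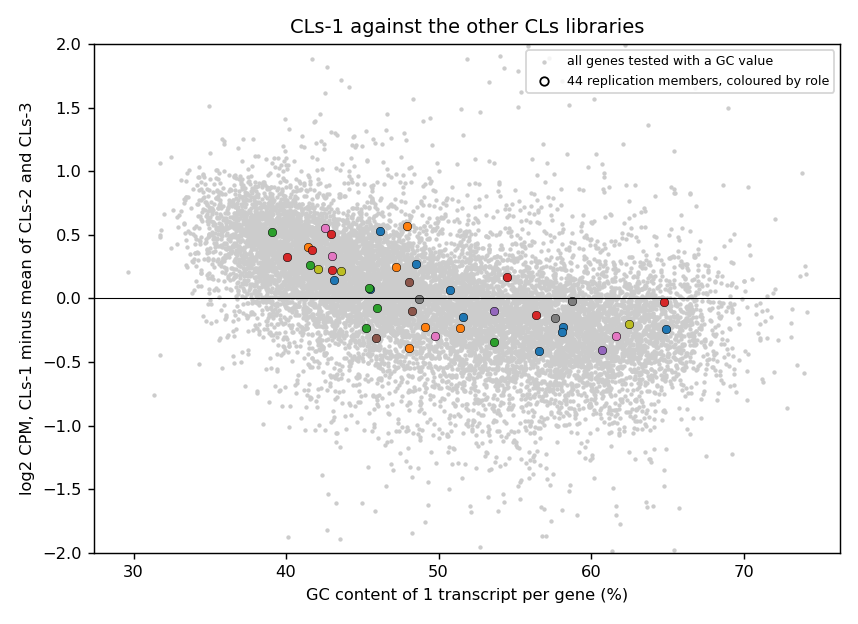
Log2 CPM of CLs-1 minus the mean of CLs-2 and CLs-3 (y axis) against the GC content of 1 transcript per gene in percent (x axis); grey points are the 13667 genes tested with a GC value and circles the 44 members, coloured by role as in the plot of fold changes. Genes beyond 2 log2 units are not drawn. Members of low GC lie mostly above 0 and those of high GC mostly below (Spearman's rho -0.69).

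The list was therefore read again without CLs-1 and with the GC trend removed from each library, the latter a choice made after seeing the data. Without CLs-1, 15315 genes were tested and 0 members were called. At an unadjusted p under 0.05, RPA3 was higher (1 of 44, background 3.55%) and GINS4 was lower (1 of 44, background 5.47%). With 3 controls against 2 libraries, 9 members did not overlap on the higher side (CDC45, LIG1, MCM5, MCM7, PCNA, PRIM1, RFC2, RPA1 and RPA3), where 13.7% of all genes did so. On the lower side there were 4 (GINS4, POLA1, RFC3 and UHRF1), where 13.6% did so. The median log2 fold change was then 0.05.

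With the GC trend removed, rho between GC content and the CLs-1 deviation was -0.10 over the members, and the median size of that deviation went from 0.234 to 0.131. At an unadjusted p under 0.05 there was 1 higher member, RPA3 (log2 fold change 0.34, unadjusted p = 0.0485, edgeR adjusted p = 0.680), with a background of 2.80%, and 0 lower ones, with a background of 4.50%. The groups did not overlap for 3 higher members, MCM4, MCM7 and PRIM1 (background 5.73%), and for 0 lower ones (background 6.45%). RPA3 and UHRF1 overlapped between the groups in this fit. PRIM1 was non-overlapping with all 6 libraries and again with the GC trend removed, at log2 fold changes of 0.28 and 0.21. Without CLs-1 it was at 0.17, where non-overlap is nearly given in advance by that over all 6 libraries. These fits share the same libraries, and the share of all genes non-overlapping in each of them was not counted. With trends on both GC content and transcript length removed, PRIM1 was at 0.14 (unadjusted p = 0.202, edgeR adjusted p = 0.883), again without overlap. PRIM1 was called in none of these fits.

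Compared per kilobase of transcript, the members spanned a wide range of levels that the groups shared. RRM1 was the highest, with 332 ± 15.6 CPM per kb in the controls (SD, n = 3), and POLE2 the lowest, with 2.45 ± 0.240. TK1 (234 ± 15.6), MCM3 (219 ± 6.79), MCM7 (217 ± 6.31) and PCNA (202 ± 6.43) followed RRM1. The control ranges of TK1, MCM3 and MCM7 overlapped, and PCNA lay below all 3 of MCM7's libraries. The other MCM ring subunits were lower, at 132 ± 4.39 for MCM5, 122 ± 2.90 for MCM2, 113 ± 4.74 for MCM4 and 84.96 ± 5.03 for MCM6. These are levels of RNA, while the equal number of subunits in the assembled ring is a property of the protein. Large and small subunits of ribonucleotide reductase also stood apart, with RRM2 at 43.4 ± 3.11. Within RPA the order was RPA1 (92.4 ± 3.23), RPA2 (42.8 ± 5.89) and RPA3 (13.9 ± 0.969), with no overlap between them. GINS2 (42.9 ± 4.68) was above GINS4 (23.3 ± 1.92), GINS3 (15.8 ± 3.29) and GINS1 (7.49 ± 1.93). These levels depend on which transcript length is used for a gene. Exon overlaps may also enter, as for MCM2, where AC023593.1 on the opposite strand covers 22.7% of the exon bases.

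**Figure D4:**
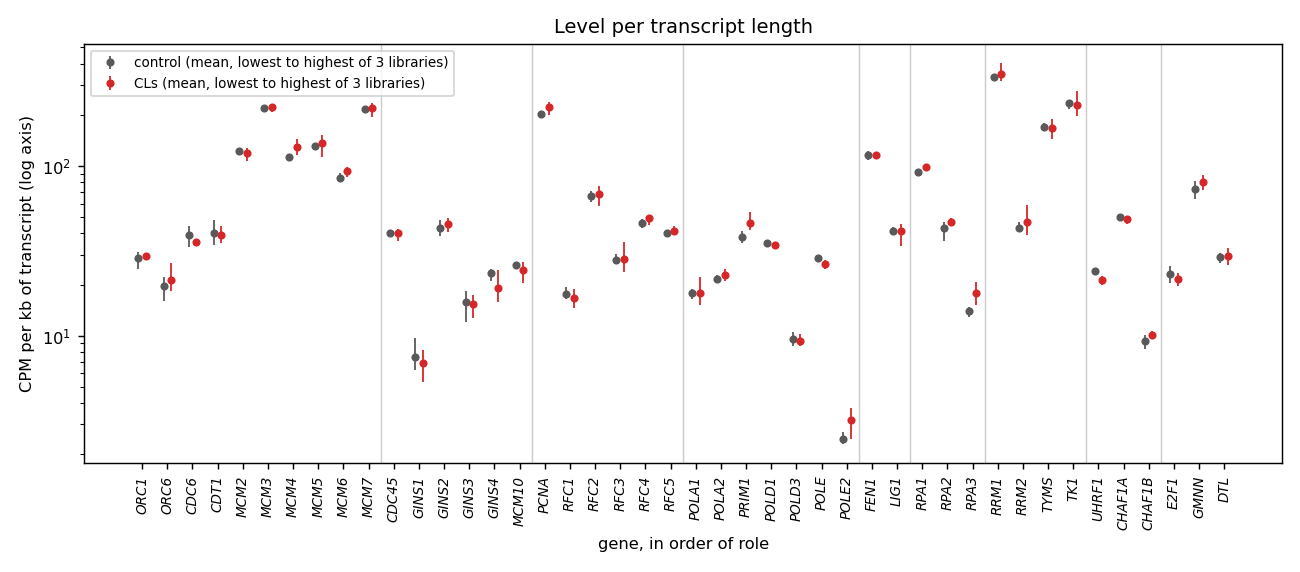
CPM per kilobase of transcript for the 44 replication genes in order of role (log axis), with points at the mean of the 3 libraries of a group and lines from the lowest to the highest library. Levels run from 2.45 for POLE2 to 332 for RRM1 in the controls, and the CLs-treated means lie beside the control means for each gene.

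Genes of neighbouring steps were read from lists of the same kind. Of 48 other replication factors, 46 were in the table and tested, and 0 were called. Their median log2 fold change was 0.07, with 33 above 0, and 2 of the 46 had an unadjusted p under 0.05, both higher, beside 2.19% of all genes tested. These were RNASEH2B, a subunit of the nuclease that removes ribonucleotides from DNA (11.98, 11.1 and 11.1 CPM against 19.4, 15.8 and 13.9), at 0.53 (standard error 0.19, edgeR adjusted p = 0.633), and ORC3, a subunit of the origin recognition complex (40.0, 40.6 and 36.6 CPM against 59.7, 47.2 and 42.4), at 0.35 (standard error 0.16, edgeR adjusted p = 0.843). In both, CLs-1 was the highest library and the groups did not overlap. Without it RNASEH2B was at 0.39 and ORC3 at 0.20 (edgeR adjusted p = 0.542 and 0.662). ASF1A, a histone chaperone, had 0.42 with overlap, and 0.29 without CLs-1. In all, 5 of the 46 were non-overlapping and higher and 1 was lower, beside 5.34% and 6.18% of all genes.

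Of 17 cyclins, kinases and inhibitors of G1 and the G1/S step, 16 were tested, 0 were called and 0 had an unadjusted p under 0.05. The median was 0.04. CCNE2 (0.45, standard error 0.21) and CCNE1 (0.53, standard error 0.26), the E-type cyclins that drive entry into S phase, and CDK4 (0.28, standard error 0.14) had the smallest p, with edgeR adjusted p of 0.863, 0.887 and 0.899, and overlapped between the groups. Without CLs-1 they were at 0.19, 0.53 and 0.23. CDKN2C was higher without overlap, 1 of 16 beside 5.34% of all genes. Of 27 genes of G2 and mitosis, 0 were called and the median was -0.04. CDK1, the mitotic kinase, was the only one of them with an unadjusted p under 0.05, at 86.5, 82.7 and 79.9 CPM in the controls and 141, 96.5 and 95.7 CPM in CLs-1 to CLs-3 (0.42, standard error 0.17, edgeR adjusted p = 0.739). Without CLs-1 it was at 0.21 (unadjusted p = 0.0799, edgeR adjusted p = 0.599). AURKB (-0.28, standard error 0.14) and MKI67 (-0.31, standard error 0.16), the gene of the Ki-67 antigen, had the next smallest p, with edgeR adjusted p of 0.890 and 0.894. Without CLs-1, AURKB was at -0.18 and MKI67 at -0.45 (unadjusted p = 0.0123, edgeR adjusted p = 0.407 for MKI67). In this list 2 of 27 genes were non-overlapping in each direction, beside 5.34% of all genes higher and 6.18% lower.

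Symbols of the histone clusters, many of whose genes are transcribed in S phase, were taken by prefix, so pseudogenes such as HIST1H3PS1 are among them. They were mostly at low counts, with 83 of 89 symbols under 100 counts in every library. HIST1H1C, HIST1H2AC, HIST1H2BD, HIST1H2BJ and HIST1H2BK had 100 or more in each. Of the 89, 30 were tested, 0 were called, 0 had an unadjusted p under 0.05 and 0 were non-overlapping. Of all genes tested, 2.19% higher and 3.62% lower had such a p, and 5.34% higher and 6.18% lower were non-overlapping. The 30 histone symbols had a median of -0.01, and values ran from -0.73 (HIST2H4A) to 0.75. HIST1H3D (0.62, standard error 0.36), HIST1H3H (-0.45, standard error 0.30) and HIST2H4A (standard error 0.53) had the smallest p, with edgeR adjusted p of 0.938, 0.956 and 0.971. Without CLs-1 they were at 0.83, -0.24 and -0.30. HIST2H4A has a near-identical copy, HIST2H4B, so the split of reads between them is uncertain.

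**Figure D5:**
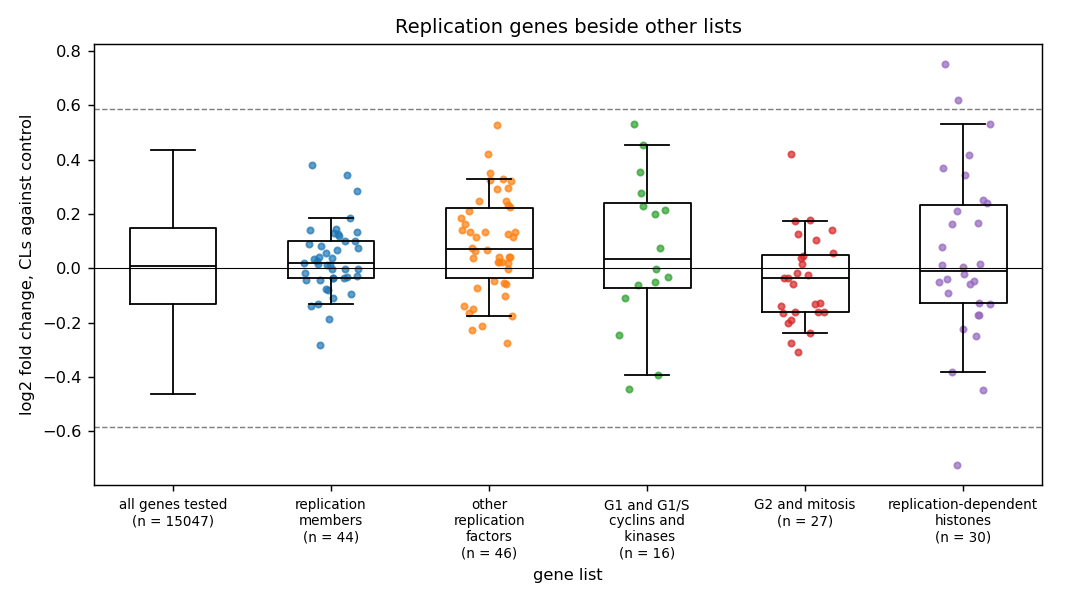
Log2 fold change, CLs against control (y axis), for all genes tested and for 5 lists (x axis, with the number tested); boxes give the median and quartiles, whiskers the 5th and 95th percentiles, points single genes, and dashed lines a 1.5-fold change. The medians are 0.01 for all genes, 0.02 for the replication genes and between -0.04 and 0.07 for the other lists.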

How the data were processed

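The authors deposited whole-number counts of reads per gene symbol for 6 single-end Ion Proton libraries, without normalization; reads were mapped with MapSplice, and the submitters' processing notes name HTSeq 0.6.1, hg19 and GRCh37. The counting's strand setting is not given in the sources used here. Counts were tested with edgeR 4.0.16 in R 4.3.3 (filterByExpr, TMM, quasi-likelihood F test on condition, Benjamini-Hochberg over all 15047 genes tested); the script was tested on simulated data. EBSeq, which the study used, was not run. Standard errors were derived from the F statistic. Exon overlaps were read from GENCODE v29 and may differ in the annotation used for counting. Alternatives were DESeq2 1.42.0, other scaling and filters, the replicate number as a block, each library left out, and, chosen after seeing the data, loess offsets (span 0.3) on transcript GC content, or GC and length, over 13667 genes with a GENCODE v29 transcript. Members and lists were chosen for known roles, by symbol, but with earlier results of these data known. Per-sample values are given for members called, not overlapping between groups, at unadjusted p under 0.05, or with the smallest p of their role, and up to 3 genes of other lists with the smallest p; other members are given by fold change. Totals were 11418527 to 13998946 counts, and floors cover counting error only. Replicates of a group differed beyond sampling noise (chi-square over degrees of freedom 8.19 to 34.8).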

Additional observations from a re-analysis of the deposited data

How the results depend on the processing

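Under every alternative run 0 of the 44 members were called, and 128 of 135 values of the 9 named members kept their direction. The named members were picked for non-overlap or the smallest p of their role, which favours a steady direction. Some other members turned when a library was left out, such as MCM5 (-0.02 to 0.18), GINS1 (-0.26 to 0.12), RFC3 (-0.18 to 0.13) and TK1 (-0.20 to 0.06). Others, such as MCM6 (0.08 to 0.18) and POLE (-0.18 to -0.09), did not. The number of genes called among all genes tested, 13, became 107 with DESeq2, 8 with library totals, 171 with no filter on low counts, 22 with the GC offset and 22 with the GC and length offset (18 over the same genes without an offset), and 3 to 7 when a library was left out. Members at an unadjusted p under 0.05, 0 at first, were 1 with library totals (RPA3) and 1 with the GC offset (higher, beside 2.80% of all genes). They were 0 to 2 when a library was left out. The 2 came without CLs-1, 1 higher and 1 lower, beside 3.55% and 5.47% of all genes. Non-overlapping members were 4 to 13 when a library was left out, against 3. The 13 came without CLs-1, 9 higher and 4 lower, beside 13.7% and 13.6% of all genes. Fewer samples make overlap less likely. Shares over all genes without each of the other libraries, or with library totals, are not given here. LIG1, at -0.0039, was at 0.017 with library totals, 0.00081 with no filter, 0.040 with the GC offset, 0.061 with the GC and length offset, and -0.082 to 0.12 when a library was left out (0.041 without Control-3 and 0.12 without CLs-1). RRM2, at 0.10, was at -0.11 to 0.21 when a library was left out, the first of these without CLs-1. The cause was not tested. With the replicate number as a block, 68 genes and 0 members were called, and the smallest adjusted p of a member was 0.656 (RPA3). Same-numbered samples correlated at 0.111, 0.0987 and 0.305 in their deviations from the group means, and each correlated best with its own number. The labels name no pairing, and whether same-numbered samples share more than a number was not tested. Precision was limited by 3 libraries per group.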

Other observations

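The summed levels of 2 of the neighbouring lists separated the CLs-treated libraries from each other. The 27 genes of G2 and mitosis summed to 5283, 5173 and 5296 CPM in Control-1 to Control-3. CLs-1 held 5433 CPM, above every control, while CLs-2 and CLs-3 held 4610 and 4614 CPM, below every control. MKI67 followed the same pattern only in part, at 542, 617 and 671 CPM in the controls and 583, 411 and 482 CPM in CLs-1 to CLs-3. The 89 histone symbols summed to 228, 269 and 265 CPM in the controls and 153, 277 and 345 CPM in CLs-1 to CLs-3, so that CLs-1 was the lowest and CLs-3 the highest of the 6 libraries. HIST1H1C and HIST1H2BK alone held 50.3% to 59.5% of the histone counts of a library. The summed replication genes showed neither pattern, with the CLs-treated libraries between 8654 and 8815 CPM. No test was run on these sums. The GC trend of CLs-1 was not removed from them, and its part in them was not tested. HIST1H2BK (61.2% GC) and HIST1H1C (57.5% GC) had values of -0.99 and -1.38 for log2 CPM in CLs-1 minus the mean of CLs-2 and CLs-3.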
